A study of Mus musculus with 10 samples.

Results

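Microtubule proteins and motors were represented by 117 spots with 67 gene names among the 22830 spots that were not controls on a mouse spotted array. A spot was a member when its name opened with tubulin, kinesin, dynein, dynactin or stathmin, or held the words microtubule-associated protein. No well-measured member differed between the pools by 1.5-fold in the same direction on every array. Of the 117 spots, 33 spots of 23 names read above the empty spots, and their ratios lay between -0.34 and 0.37 on the log2 scale. The mean ratios of the 2 dye orientations had opposite signs in 23 of these 33 spots (69.7%), and in 1560 of the 2389 spots above the empty spots on the whole array (65.3%).

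Microtubules are hollow polymers of alpha and beta tubulin that give axons and dendrites their shape. Microtubule-associated proteins such as Mapt (tau), Map2 and Map4 stabilise the polymer, whereas stathmins bind free tubulin dimers and favour disassembly. Kinesins carry cargo, mostly towards the growing end of the polymer, and cytoplasmic dynein, helped by dynactin, carries it the other way. In hypothalamic neurosecretory neurons this transport moves hormone granules from the cell body to the axon terminal.

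The tissue was the hypothalamic paraventricular nucleus (PVN), compared between mice kept from their mothers for 24 h and mice that were not separated. Litters were assigned to the groups at random, 6 animals a group were used, and 1 mm punches from 100 µm sections were combined for each 2 animals into 3 samples a group. RNA underwent 1 round of amplification and was combined into a single pool of 40 µg per group, and part of each pool was labelled with Cy5 and part with Cy3. The pools met on 10 arrays, 5 with separated RNA in Cy5 and 5 with separated RNA in Cy3. The same RNA pools stood behind every array, so the arrays were technical repeats and n = 10 counts arrays, not animals. With no replicate pools, no test of separation was made and no p-value is given. The strain, age and sex of the mice are not given in the sources used here. In bulk tissue, fewer cells of a type and less RNA per cell cannot be told apart.

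Each ratio is the separated pool over the non-separated pool on a log2 scale, averaged over the dye orientations, with the SD over 10 arrays. Its direction follows the dyes in the labels. Were the pools in the other dye, every sign would turn. Under this dye assignment the authors' deposited ratios ran the other way, as non-separated over separated. They correlated with the ratios used here at -0.96 to -0.92. Whether this reflects the dyes or the direction the authors chose was not tested. A spot counted as above the empty spots when its pool's channel exceeded the 95th percentile of the empty spots on at least 8 arrays in either pool. A spot was called when it differed by at least 1.5-fold (0.585 on the log2 scale) and had 1 sign on all 10 arrays. Each dye orientation was scanned on its own day, so scan day and orientation cannot be told apart, and the orientation means given below are also the values within a scan day.

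The median spot intensity was 269 to 489 in Cy5 and 404 to 929 in Cy3, and the limit set by the empty spots was 670 to 2913 in Cy5 and 1031 to 4192 in Cy3. In 1 array (separated RNA in Cy3, replicate 3) Cy5 was brighter than Cy3 before normalization, with a median log2 of 0.26, against -1.36 to -0.70 on the other arrays. Array pairs of 1 orientation correlated at 0.38 to 0.81 over the 2389 spots above the empty spots (20 pairs), and pairs of opposite orientation at -0.38 to -0.04 (25 pairs). None of the 4 spots for the PVN hormones vasopressin, oxytocin, thyrotropin releasing hormone and corticotropin releasing hormone was above the empty spots, so the arrays did not show the nucleus by its defining hormones. Markers of neurons in general were above the empty spots in 6 of 18 spots, from -0.37 to -0.02 with a median of -0.24. These 6 spots came from 2 names, enolase 2 and, for most of them, synaptosomal-associated protein. Their orientation means had opposite signs in 4 of the 6, with medians of -0.45 with separated RNA in Cy5 and 0.05 with that RNA in Cy3. Astrocyte markers were above the empty spots in 10 of 21 spots, from 5 names, and 9 of these 10 were below 0 (median -0.50, range -0.87 to 0.10). Of the 10, 2 were called lower, against 0.502% of all spots above the empty spots. Both were of aldolase 3, C isoform (-0.73 and -0.87), whose other bright spot read -0.19. The bright spots of solute carrier family 1, member 3 read -0.02 and 0.10. Oligodendrocyte markers were above the empty spots in 3 of 24 spots (-0.43 to 0.25), and the 6 microglial spots and the 1 ependymal spot in none. The part of cell type in the values below was not tested.

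Member spots were more often above the empty spots (33 of 117, 28.2%) than spots in general (2389 of 22830, 10.5%). The remaining 84 member spots, among them every spot of 44 names, were not and are called dim below, and their ratios are given as descriptions without a fold. No member was called higher, and the share of all spots called higher was 0.0745% (17 of 22830). A single member spot, of Mapre2, was called lower, and the share of all spots called lower was 0.18% (41 of 22830). Among spots above the empty spots, 0 of 33 members were called in either direction, and 0.167% of all such spots were called higher and 0.502% lower. No member above the empty spots kept 1 sign on all 10 arrays at any size, where 1.59% of all such spots were above 0 on every array and 4.52% below 0. Counts this small lie near the background, and the members did not stand out by the number of calls.

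The median over the 33 spots was -0.04, with 11 above 0 and 22 below, and the median over all spots above the empty spots was 0.02. Over all 117 spots the median was also -0.04, with 46 above 0 and 71 below, and over every spot on the array it was 0.00. The SD over arrays had a median of 0.37 in the 33 spots and 0.55 in the dim ones. The ratio was smaller than the SD over its own arrays in 31 of the 33 spots, and the other 2 were the brighter spots of Tuba1c and Tuba1b. That SD also holds the difference between dye orientations.

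**Figure D1:**
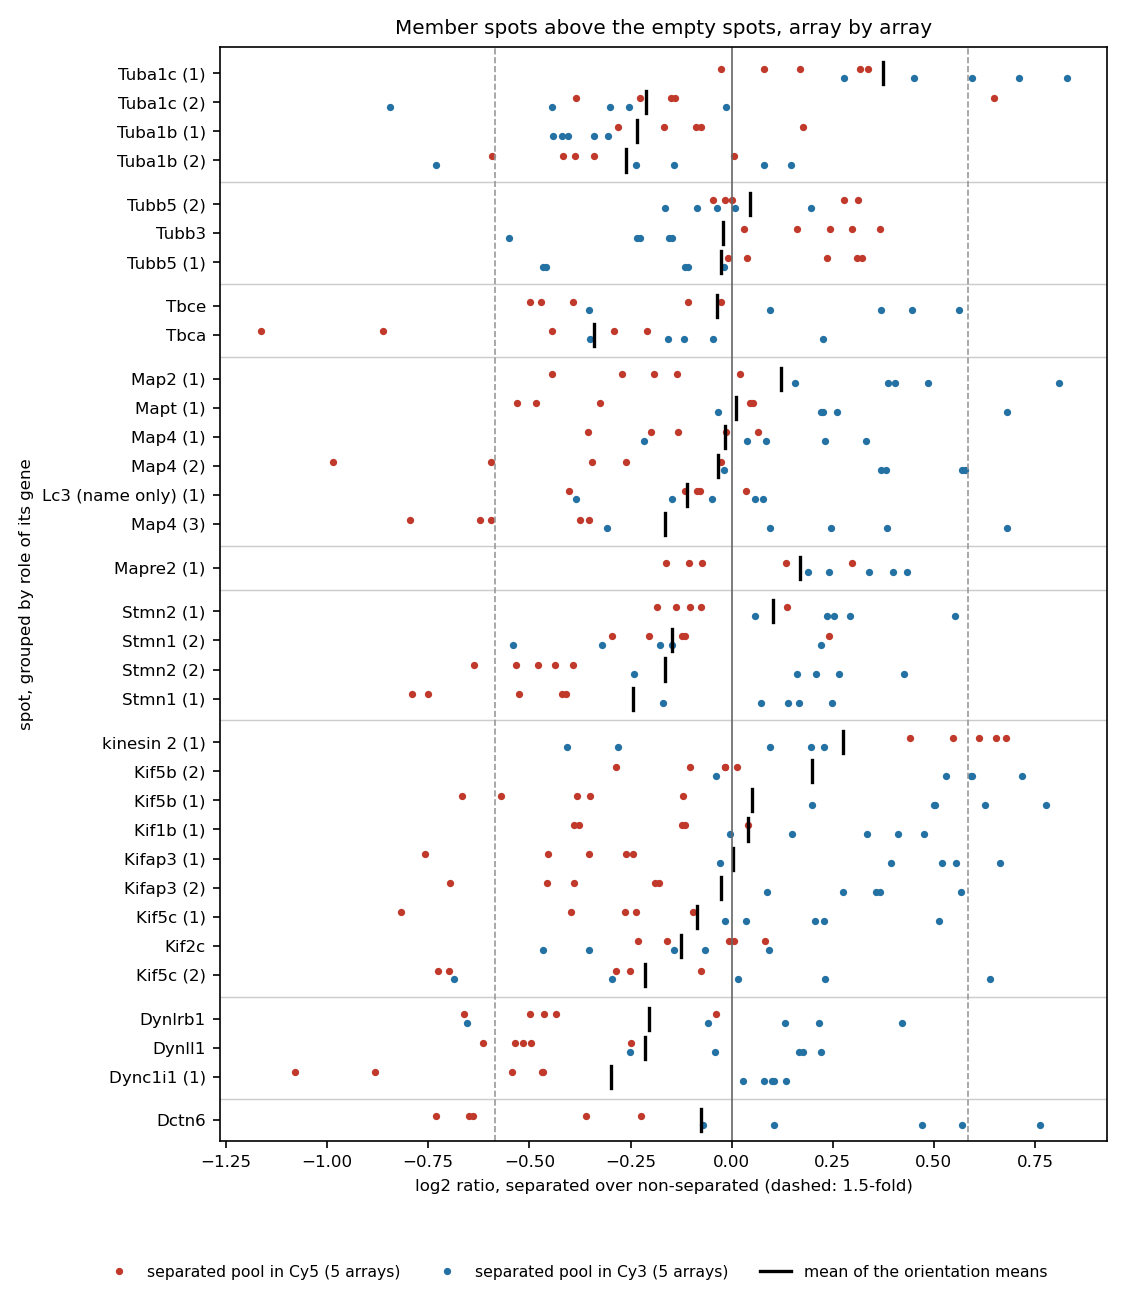
Log2 ratio of separated over non-separated (x axis) on each array for the 33 member spots above the empty spots, by role (y axis, spot number in brackets); red points are the 5 arrays with separated RNA in Cy5, blue points the 5 with that RNA in Cy3, and black bars the mean of both orientations. The black bars lie between -0.34 and 0.37, inside the dashed 1.5-fold lines, and the colours lie apart in many lines.

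Alpha tubulins, the subunit that faces the stable end of the polymer, gave the widest range between spots of 1 name among those above the empty spots. The bright spot of Tuba1c (named tubulin, alpha 6) read 0.08, 0.32, 0.17, -0.03 and 0.34 with separated RNA in Cy5 and 0.45, 0.71, 0.83, 0.28 and 0.59 with that RNA in Cy3. It was above 0 on 9 of 10 arrays, with a mean of 0.37 ± 0.27 (SD, n = 10) and orientation means of 0.18 and 0.57. It was the brightest member spot, reaching an intensity of 61041 without saturation. The other Tuba1c spot, above the empty spots on 7 arrays in the separated pool and 8 in the non-separated pool, read -0.21 ± 0.38 and was below 0 on 9 of 10 arrays, so the spots of this name pointed in opposite directions.

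Tuba1b (tubulin, alpha 2) averaged below 0 on both of its spots. The brighter one was 0.18, -0.28, -0.17, -0.07 and -0.09 with separated RNA in Cy5 and -0.30, -0.34, -0.41, -0.42 and -0.44 with that RNA in Cy3, a mean of -0.23 ± 0.20 (SD, n = 10). The other was -0.26 ± 0.29, below 0 on 7 of 10 arrays. In raw intensity, the brighter spot had medians of 23133 in the separated pool (Cy5) and 49183 in the non-separated pool (Cy3), and with the dyes turned 25125 in the separated pool (Cy3) and 20171 in the non-separated pool (Cy5). Cy3 thus read brighter in either pool, which normalization removes on average. Alpha tubulin genes are near-identical in their coding sequence, so cDNA spots can share signal among them. The 3 dim spots of Tuba4a lay between -0.28, the lowest of the alpha tubulins, and -0.21, and Tuba3a and Tuba8 (-0.22 to -0.02) were dim as well. In all, 9 of 10 alpha tubulin spots, from 5 names, were below 0, and 3 of the 4 above the empty spots. Below 0 were also 71 of 117 member spots and 11376 of 22830 spots on the array.

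Beta tubulins, the subunit that binds and hydrolyses GTP during growth, had ratios of -0.03 to 0.04 in the 3 spots above the empty spots. Tubb5 read 0.04 ± 0.16 and -0.03 ± 0.28 on its 2 spots (SD, n = 10). Tubb3, the neuronal beta tubulin, had 0.37, 0.03, 0.16, 0.30 and 0.24 with separated RNA in Cy5 and -0.23, -0.15, -0.55, -0.23 and -0.15 with that RNA in Cy3. All arrays of 1 orientation were above 0 and all of the other below, and the mean was -0.02 ± 0.29. The dim beta tubulins were Tubb2a, with 3 spots from -0.07 to 0.21, and Tubb4a at -0.18.

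Tubulin folding and nucleation factors included the lowest member above the empty spots. Tbca, a chaperone that receives beta tubulin during folding, read -0.21, -0.44, -0.86, -0.29 and -1.16 with separated RNA in Cy5 and -0.05, 0.23, -0.12, -0.16 and -0.35 with that RNA in Cy3. It was below 0 on 9 of 10 arrays with a mean of -0.34 ± 0.40 (SD, n = 10), and its orientation means were -0.59 and -0.09. Tbce, a chaperone that acts on alpha tubulin, was -0.04 ± 0.40. Of the gamma complex proteins, which seed new microtubules, Tubgcp2 (-0.34) and Tubgcp3 (-0.32) had 1 dim spot each, and Tubgcp5 ranged from -0.22 to 0.21 over 3 dim spots. Tubd1, a centriolar tubulin, read -0.04.

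Structural microtubule-associated proteins had 6 spots above the empty spots, with 2 ratios above 0, 4 below and none called. Map4, a broadly expressed stabiliser, had 6 spots from -0.16 to 0.12, and its brightest spot read -0.02 ± 0.21 (SD, n = 10). Its other spots above the empty spots read -0.03 ± 0.52 and -0.16 ± 0.49. Map2, the dendritic protein, read -0.44, -0.27, -0.13, -0.19 and 0.02 with separated RNA in Cy5 and 0.39, 0.40, 0.81, 0.49 and 0.16 with that RNA in Cy3. Its mean of 0.12 ± 0.40 thus joined orientation means of -0.20 and 0.45, and its dim spot, at 0.19, was the highest of this role. Mapt, the axonal protein tau, was 0.01 ± 0.37 on its bright spot and ran from -0.16 to 0.08 over 3 spots. The name microtubule-associated protein 1 light chain 3, which does not settle the Map1lc3 gene, had 2 spots. The brighter read -0.11 ± 0.17 and the dim one -0.24. Map1b, which acts in growing axons, was not above the empty spots and had the lowest value of the role, -0.37 ± 0.63. Map6 (-0.31) and Map7 (-0.30) were dim too.

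Mapre2, a member of the family that tracks growing microtubule ends, held the called spot. This spot read -0.66, -0.83, -0.64, -0.44 and -0.67 with separated RNA in Cy5 and -0.47, -0.36, -0.62, -1.21 and -0.65 with that RNA in Cy3. Every array was below 0 and the orientation means were -0.65 and -0.66, so its value was nearly the same in either orientation. Its mean was -0.65 ± 0.24 (SD, n = 10). It exceeded the empty spots on 2 arrays in the separated pool and 6 in the non-separated pool, short of the 8 required. With separated RNA in Cy5 its intensity had a median of 1526 in the separated pool and 6162 in the non-separated pool, and with separated RNA in Cy3 a median of 1297 in the separated pool and 1435 in the non-separated pool.

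The other spots of Mapre2 did not show this. The brightest read -0.07, -0.11, 0.13, -0.16 and 0.30 with separated RNA in Cy5 and 0.40, 0.43, 0.24, 0.19 and 0.34 with that RNA in Cy3, a mean of 0.17 ± 0.22 (SD, n = 10). The remaining spots, both dim, read -0.19 and 0.15. The 4 spots of this gene therefore spanned 0.82 on the log2 scale, the widest range of any member name. Mapre1, of the same family, was -0.14, and Eml1 was -0.15 and -0.09, all dim.

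**Figure D2:**
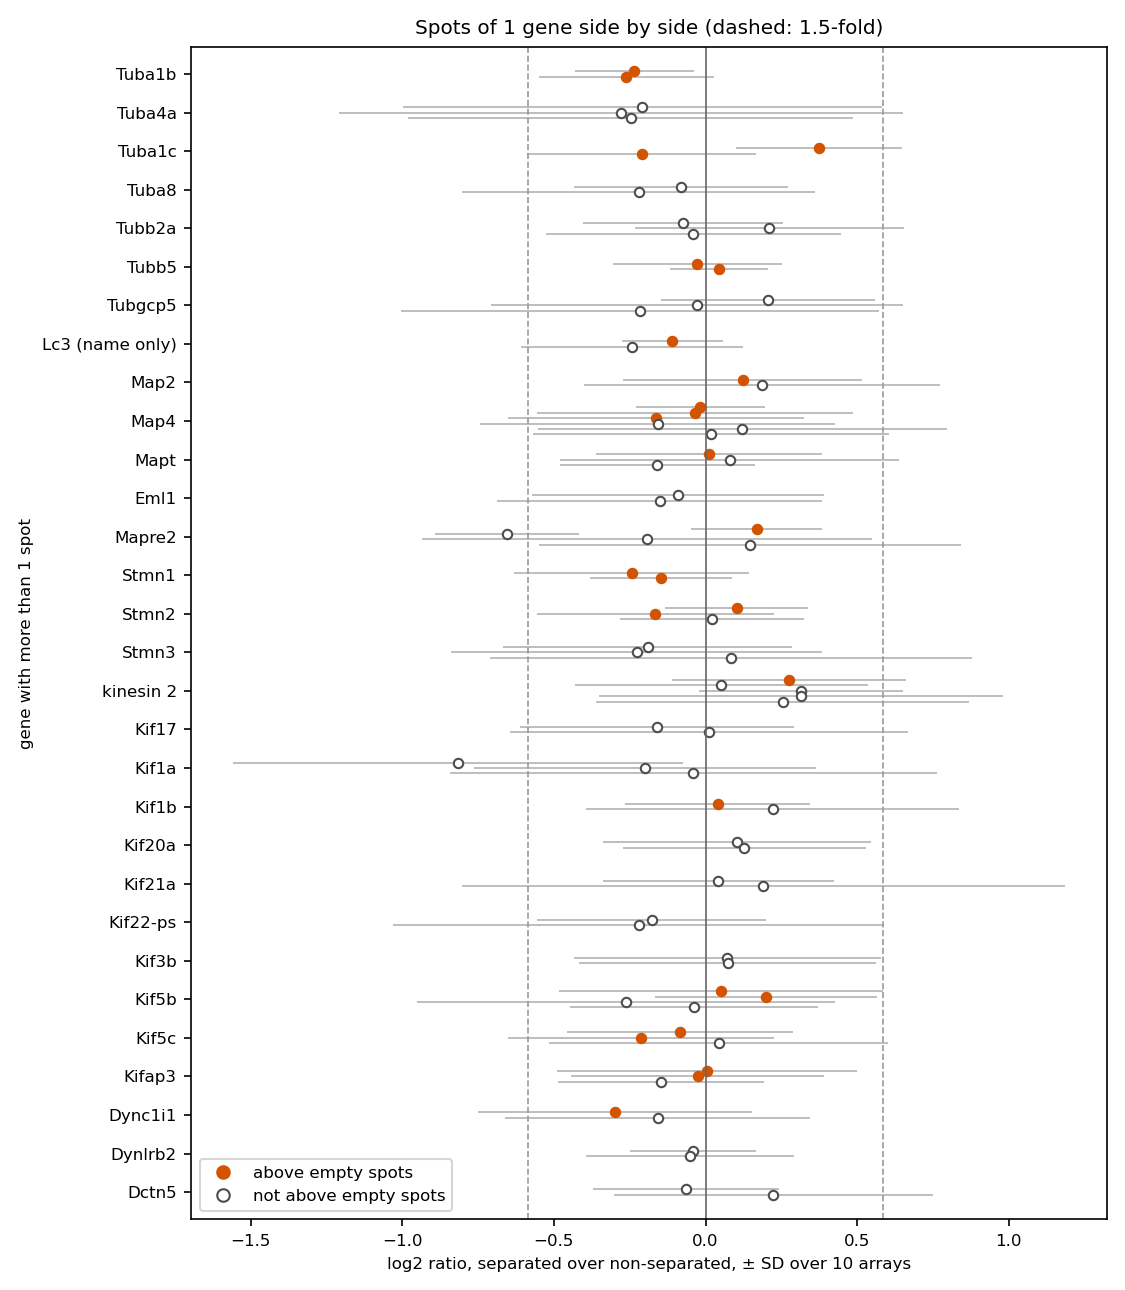
Log2 ratio of separated over non-separated (x axis) with the SD over 10 arrays (grey bars) for each spot of the 30 names with more than 1 spot (y axis); filled points are above the empty spots and open points are not. The Mapre2 spots run from -0.65 to 0.17 and the Tuba1c spots from -0.21 to 0.37, while the Tuba1b spots lie at -0.26 and -0.23.

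Stathmins, which sequester tubulin, had 3 of their 4 spots above the empty spots below 0. Stmn1, abundant in developing neurons, read -0.42, -0.41, -0.53, -0.79 and -0.75 with separated RNA in Cy5 on its brighter spot, and 0.25, 0.17, 0.07, 0.14 and -0.17 with that RNA in Cy3. Its mean was -0.24 ± 0.39 (SD, n = 10), the lowest of this role, and the other Stmn1 spot was -0.15 ± 0.24. Stmn2, which acts in growth cones, read 0.10 ± 0.23 and -0.17 ± 0.39 on its bright spots and 0.02 on the dim one. Stmn3 ran from -0.23 to 0.08 over 3 dim spots, and Stmn4 was 0.16 ± 1.06 on 1 dim spot, the highest of the role and the least precise.

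Kinesins made up 26 names and 45 spots, of which 9 spots were above the empty spots, 5 above 0 and 4 below. The most brightly measured was Kifap3, which links the heterotrimeric kinesin-2 motor to its cargo. Its first spot read -0.26, -0.35, -0.24, -0.45 and -0.76 with separated RNA in Cy5 and 0.66, 0.55, 0.52, 0.40 and -0.03 with that RNA in Cy3, which averaged to 0.00 ± 0.50 (SD, n = 10). Its second spot was -0.03 ± 0.42, and over 3 spots the name ran from -0.15 to 0.00. Kif5b, a conventional kinesin heavy chain, read 0.05 ± 0.53 and 0.20 ± 0.37 on its bright spots and ran from -0.26 to 0.20 over 4 spots. On the brightest Kif5b spot the sign was below 0 on all arrays with separated RNA in Cy5 (mean -0.42) and above 0 on all with that RNA in Cy3 (mean 0.52).

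Kif5c, the neuronal conventional kinesin, read -0.08 ± 0.37 and -0.21 ± 0.44 and ran from -0.21 to 0.04 over 3 spots. Kif1b, a motor for synaptic vesicle precursors and mitochondria, was 0.04 ± 0.30. Kif2c, which depolymerises microtubule ends rather than walking along them, was -0.12 ± 0.18. The spot named kinesin 2, a name that does not settle the gene, read 0.61, 0.55, 0.65, 0.68 and 0.44 with separated RNA in Cy5 and -0.41, -0.28, 0.20, 0.23 and 0.09 with that RNA in Cy3. It averaged 0.28 ± 0.39 (SD, n = 10), and all 5 spots of that name were above 0, from 0.05 to 0.32, with 4 of them dim.

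Kif1a, the axonal motor for synaptic and dense-core vesicles, had 3 spots, none above the empty spots on any array in either pool. The first read -0.58, -1.15, -1.60, -0.06 and -1.74 with separated RNA in Cy5 and -0.59, -0.88, 0.65, -0.69 and -1.54 with that RNA in Cy3. Its mean of -0.82 ± 0.74 (SD, n = 10) was the lowest of all member spots, and 1 array was above 0, so it was not called. The array above 0, separated RNA in Cy3, replicate 3, is the one with the differing raw dye balance, and without it the mean was -0.98. The median intensity of this spot was 141 to 1214 by pool and dye. The other Kif1a spots read -0.20 ± 0.56 and -0.04 ± 0.80. The highest value of any member was also a dim kinesin, Kif4, a chromosome-associated motor, at 0.41 ± 0.35, above 0 on 9 of 10 arrays.

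**Figure D3:**
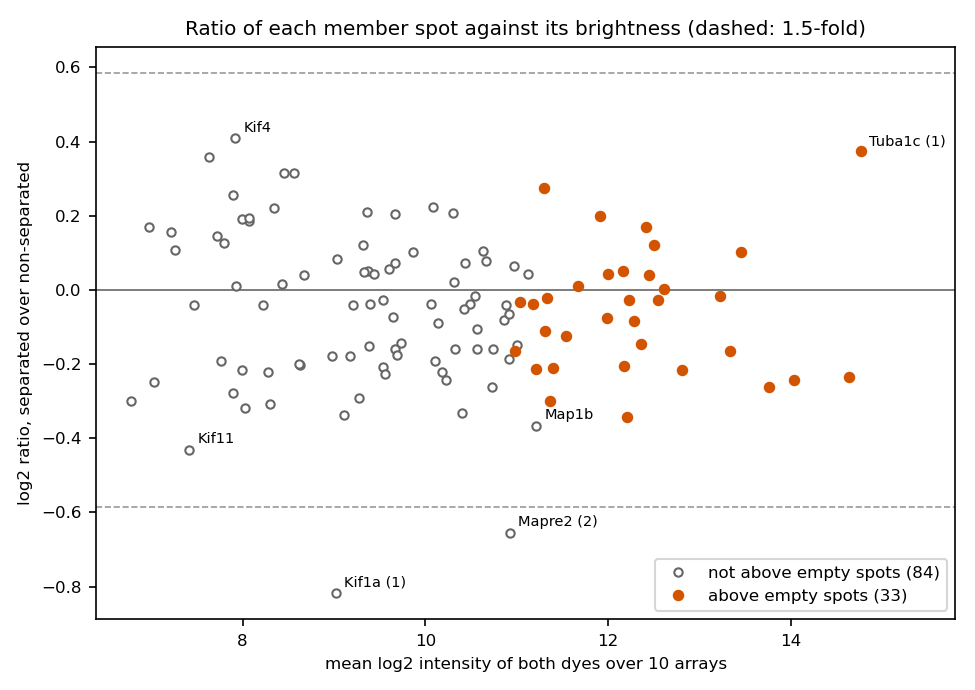
Log2 ratio of separated over non-separated (y axis) of each member spot against its mean log2 intensity (x axis); filled points are the 33 spots above the empty spots and open points the 84 that are not. Both spots past a dashed 1.5-fold line, Kif1a at -0.82 and Mapre2 at -0.65, are open points.

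Cytoplasmic dynein chains read below 0 in all 3 spots above the empty spots, with none called. Dync1i1, an intermediate chain that binds dynactin, read -0.88, -0.47, -0.54, -0.47 and -1.08 with separated RNA in Cy5 and 0.11, 0.08, 0.10, 0.03 and 0.13 with that RNA in Cy3, a mean of -0.30 ± 0.45 (SD, n = 10). Its second, dim spot was -0.16. Dynll1, a light chain shared with other complexes, was -0.21 ± 0.33 with orientation means of -0.48 and 0.05. Dynlrb1, a roadblock light chain, was -0.20 ± 0.39 with orientation means of -0.42 and 0.01. With separated RNA in Cy5, all 5 arrays were below 0 in each of these 3 genes. With that RNA in Cy3, 2 arrays each of Dynll1 and Dynlrb1 and none of Dync1i1 were below 0, and the lowest of these was Dynlrb1 at -0.65. The motor subunit itself, Dync1h1, was dim and read -0.33 ± 0.34, below 0 on 9 of 10 arrays, and Dync1i2, also dim, was the highest of the role at 0.21. Dctn6, a dynactin subunit of the pointed-end complex, was the single dynactin above the empty spots and read -0.08 ± 0.54, with orientation means of -0.52 and 0.37. The other dynactins were dim, Dctn1 at 0.11, Dctn3 at 0.10, Dctn4 at 0.06 and Dctn5 at -0.06 and 0.22.

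Most members above the empty spots differed by dye orientation in the same direction. The median of the 33 spots was -0.25 with separated RNA in Cy5 and 0.09 with that RNA in Cy3. By array it was -0.25, -0.27, -0.17, -0.19 and -0.23 with separated RNA in Cy5 and 0.23, 0.15, 0.15, 0.14 and -0.03 with that RNA in Cy3, so the orientations did not overlap. Over all spots above the empty spots the orientation medians were -0.05 and -0.02. Of the 33 spots, 25 (75.8%) read lower with separated RNA in Cy5 than with that RNA in Cy3, against 1292 of 2389 (54.1%) over all such spots. It was also frequent in some marker lists, though these held few names. Among spots above the empty spots it held in 9 of 10 for astrocyte markers, from 5 names. It held in 5 of 6 for neuronal markers, all 5 of synaptosomal-associated protein. For other microtubule and cytoskeleton genes it held in 9 of 15, nearer the share over all such spots, and for oligodendrocyte markers in 1 of 3. A difference in this direction means that the spot read brighter in Cy3 than other spots of its intensity, averaged over which pool was in that dye. The signs were opposed between orientations on every array in 4 of 33 spots (12.1%), those of Tubb3, Kif5b, Kifap3 and Dync1i1, and the share over all spots above the empty spots was 16.7% (400 of 2389). By the rule of 1.5-fold and 1 sign applied to the 5 arrays with separated RNA in Cy5 alone, 1 member spot was called higher and 8 lower of 117, where 4% of all spots were called higher and 3.03% lower. Of the 33 members above the empty spots, 3 were called by this rule, against 17.2% of all such spots. On the 5 arrays with that RNA in Cy3 alone, no member was called higher and 4 were called lower, where 1.55% of all spots were called higher and 1.46% lower. Differences between orientations were thus also present outside these genes, and their cause was not tested.

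**Figure D4:**
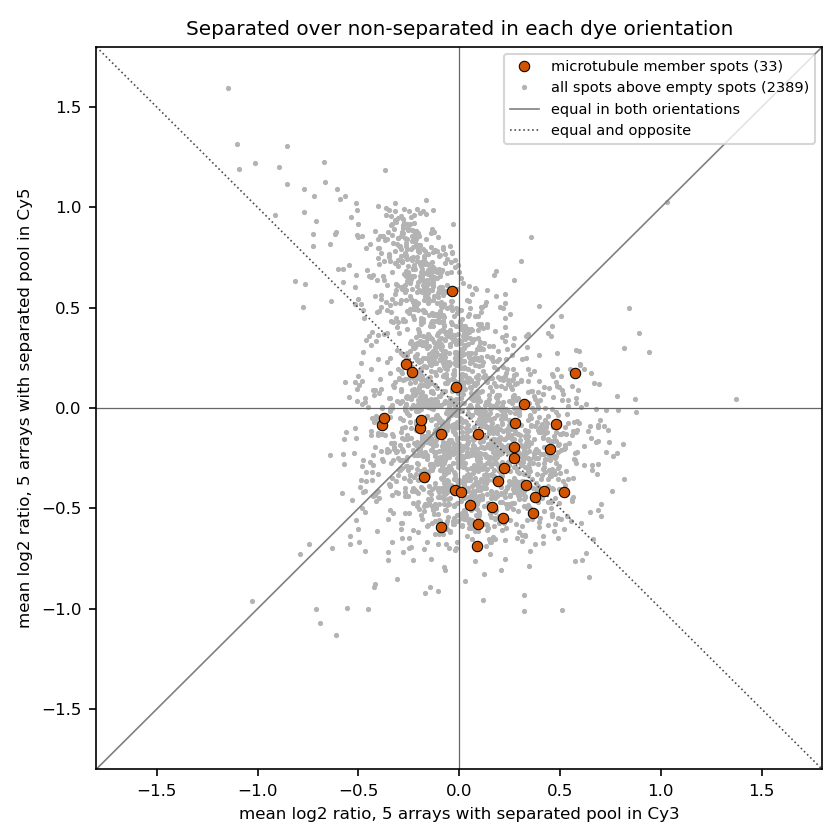
Mean log2 ratio of separated over non-separated over the 5 arrays with separated RNA in Cy5 (y axis) against the 5 with that RNA in Cy3 (x axis), for the 33 member spots (orange) and all 2389 spots above the empty spots (grey). Most member points lie below the diagonal of equal values, 25 of 33, and many lie near the line of equal and opposite values.

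Spots of 1 name also show how far a ratio can be read. Of 30 names with more than 1 spot, 9 had more than 1 above the empty spots. The spots of such a name agreed in sign in 5 of the 9, and lay within 0.1 of each other in 4. The SD between spots of 1 name was 0.157 on the log2 scale (19 spots of 9 names), and the SD over all 33 spots was 0.168. Without Tuba1c, whose spots lay farthest apart and which was left out after seeing the data, these SDs were 0.0921 (17 spots of 8 names) and 0.151. Over all named spots above the empty spots they were 0.158 between spots of 1 name (446 spots of 198 names) and 0.211 over spots.

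Other microtubule and cytoskeleton genes, 42 names and 78 spots of severing, end-binding, centrosomal, neurofilament and actin-binding proteins, held no called spot. Their 15 spots above the empty spots had a median of 0.15, with 13 above 0 and 2 below. Over all spots above the empty spots, 1285 of 2389 were above 0. The orientation medians were 0.14 and 0.15, but single spots agreed less. The orientation means had opposite signs in 9 of the 15, and 3 of the 15 were opposed on every array. The brightest were Nefm, a neurofilament subunit, at 0.04 ± 0.28 (SD, n = 10), and Tmsb4x, which sequesters actin, at -0.05 ± 0.40. Hap1, an adaptor of dynein and kinesin cargo, read 0.15 ± 0.14, the first spot of Actb 0.31 ± 0.22, and Pfn2, an actin-binding profilin, 0.02 ± 0.26.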

How the data were processed

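Each array had 24192 spots in 48 blocks of 504, including 1170 empty and 192 other control spots. The deposited spot intensity is linear and was measured without background subtraction per the file headers; Cy5 and Cy3 signals and the other scanner columns used (local background) were deposited in this form. The authors' deposited log2 ratios (19025 per array) had medians of 0.0011 to 0.0094 and the same spread on every array; their normalization was not stated in the labels or headers, and they served as an alternative. With limma 3.58.1 (R 4.3.3), normexp background correction (offset 50) was followed by global loess on each array, in which controls had no weight. Summaries used Python 3.11.15 with pandas 2.3.3. A spot's value is the mean of the orientation means. Procedures were tested on simulated data, in which the changed spots differed by more than any member spot did here. That test does not cover changes of the size read in the members.

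Arrays were assigned to orientation by the labels. Symbols came from RefSeq names of assembly GRCm38.p6: 65 of 67 names matched, 17 through an older symbol, and clone identity was not checked. Named are all called members, Kif1a, up to 8 members above the empty spots per role by brightness, the extremes of each role and names with 3 or more spots. Members and lists were chosen with earlier results of these data known. The number of arrays limits precision. The SD holds array error and the difference between dye orientations, and no spread between animals. Replicate numbers did not pair arrays: deviations of same-numbered arrays correlated at -0.027 to 0.022. Alternatives were other background, normalization, array and call choices. No table column lacked a sample.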

Additional observations from a re-analysis of the deposited data

Results flagged for a closer look

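Of 96 sets of 5 arrays of 1 orientation, 6 held an array that stood apart from the other 4, where chance gives about 1 in 20 sets, or 4.8. The dimmer Tuba1c (tubulin, alpha 6) spot read 0.65 on replicate 3 of the arrays with separated RNA in Cy5, against -0.39 to -0.14 on the other arrays. Tubb3 read -0.55 on replicate 3 of the arrays with separated RNA in Cy3, against -0.23 to -0.15. The role medians given next are over the brightest spot of each name, dim ones included. The median of the beta tubulins on the same array was -0.51, against -0.18 to -0.09. The second Kif5b spot read -0.038 on replicate 5 with separated RNA in Cy3, against 0.53 to 0.72. With the separated pool in Cy5, the median of tubulin folding and gamma complex proteins was 0.19 on replicate 2, against -0.44 to -0.33, and the median of the dynactins was -0.61 on replicate 1, against -0.22 to -0.11.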

How the results depend on the processing

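There were 19 alternatives that recompute ratios, of which the authors' ratios covered 31 of the 33 members above the empty spots. Of these 33, 10 kept 1 direction under every alternative with a value and 23 changed sign under at least 1. The alternatives are not independent checks. Those that leave out 1 array share all other arrays with the values above. Local background was 0 in 91.6% to 100% of spots. No background correction and subtraction of local background were therefore near copies, with a member median of -0.04 in both. Most shifts (2371 of 2374 named values) were under 1 SD, but that SD holds the difference between orientations, so it says little about stability. The other 3 were role medians over the brightest spot of each name in 1 orientation: kinesins at -0.19 with separated RNA in Cy5, and stathmins at 0.18 and dynein chains at 0.05 with that RNA in Cy3. The called Mapre2 spot lay between -0.75 and -0.59 under the same alternatives. On the arrays of separated RNA in Cy5 alone, 1 member was called higher and 8 lower (4% and 3.03% of all spots), 3 spots among all of these being above the empty spots, and the median of members above the empty spots was -0.25; with the other orientation alone, 4 were called lower (1.46% of all spots). Leaving out 1 array at a time gave 1 to 2 called lower, the 2 without replicate 3 of separated RNA in Cy3, when Kif1a joined at -0.98 (0.25% of all spots called lower). With 9 arrays of 1 sign enough, 2 were called lower (0.372% of all spots), and counting only spots above the empty spots, 0. Median centring moved the median of all spots above the empty spots to -0.05 and that of the members to -0.11. No paired analysis was possible because replicate numbers did not pair the arrays and no test was made. Dim spots limit the reading of 84 of 117 members, 1 pool per group allows no statement on animals, and orientation and scan day coincide.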
